A study of Mus musculus with 24 samples.

Results

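Vessels and the coverings of the brain were followed through 32 marker genes, of 52352 genes to which reads were assigned, in the frontal cortex of 24 mice. The genes were taken as a list of names, chosen with earlier results of these data known. They were 12 of endothelium, 6 of pericytes, 5 of smooth muscle and 9 of meningeal fibroblasts. All 32 passed the filter on low counts, which 18239 genes passed. The tissue came from a cross of mice with a single intact copy of the progranulin gene (Grn+/-) and mice with a human TDP-43 transgene (hTDP), and the title of the series asks whether these changes interact in traits related to frontotemporal dementia. Mice with the transgene (hTDP+) were either Grn+/- or Grn+/+, and so were mice without it (hTDP-), which made 4 groups of 6 mice, 3 males and 3 females each. The cross gave littermates of all 4 genotypes, but the labels do not say which mice share a litter. Ages were 9.44 to 10.07 months in both hTDP+ groups, 8.19 to 10.79 months in Grn+/- hTDP- mice and 9.44 to 10.79 months in Grn+/+ hTDP- mice. Each library is a different mouse, and the labels name neither the promoter of the transgene nor the mouse strain. Brains were rinsed of blood with saline, frozen and thawed before dissection, and RNA was taken from the whole piece of cortex.

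Brain capillaries are tubes of endothelial cells sealed by tight junctions and studded with transporters, which together make the blood-brain barrier. Pericytes sit on the capillary wall and help to keep the barrier closed, while smooth muscle cells ring the arteries and arterioles and set their width. Fibroblasts make the collagen of the meninges and follow the larger vessels into the tissue. Capillaries run through the whole depth of the cortex, whereas meninges and large arteries lie mainly on its surface.

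The promoters of 3 genes are shown as examples from the class that varied most between mice and the class that varied little: Col1a2 and Slc22a6 of the fibroblast genes, the first with the smallest spread of the 9 and the other among the widest, and Cldn5 of the endothelial genes, close to the median spread of its class. Each run is a window of 300 bases around the gene start that RefSeq gives on GRCm38.p6, on the plus strand. Capitals mark CCAAT or its reverse complement ATTGG, whose first bases lie at −109 and 1 from the RefSeq start in Col1a2, −214, −97 and −94 in Slc22a6, where the last pair of matches overlap, and −118 and −88 in Cldn5. The windows are chr6:4505368-4505667 for Col1a2, chr19:8617746-8618045 for Slc22a6 and chr16:18776597-18776896 for Cldn5. The GENCODE annotation used for the reads starts Col1a2 further upstream, at 4504814.
Col1a2: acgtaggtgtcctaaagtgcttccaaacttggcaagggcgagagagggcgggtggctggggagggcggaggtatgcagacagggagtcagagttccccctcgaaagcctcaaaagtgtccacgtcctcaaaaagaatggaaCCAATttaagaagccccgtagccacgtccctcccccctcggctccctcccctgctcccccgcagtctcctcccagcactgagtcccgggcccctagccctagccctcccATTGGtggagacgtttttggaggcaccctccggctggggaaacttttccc
Slc22a6: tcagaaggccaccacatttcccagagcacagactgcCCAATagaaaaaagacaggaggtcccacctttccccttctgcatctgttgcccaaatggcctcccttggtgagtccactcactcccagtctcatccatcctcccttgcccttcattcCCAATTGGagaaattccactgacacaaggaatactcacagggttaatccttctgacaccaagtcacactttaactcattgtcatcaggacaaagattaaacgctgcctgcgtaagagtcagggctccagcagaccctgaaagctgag
Cldn5: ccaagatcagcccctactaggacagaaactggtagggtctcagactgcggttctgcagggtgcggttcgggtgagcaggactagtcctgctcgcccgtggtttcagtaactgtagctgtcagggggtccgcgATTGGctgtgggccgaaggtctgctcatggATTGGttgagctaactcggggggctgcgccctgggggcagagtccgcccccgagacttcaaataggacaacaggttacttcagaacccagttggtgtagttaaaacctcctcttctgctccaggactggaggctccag

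RefSeq promoters were found for 24 of the 32 genes. CCAAT on either strand stood in a promoter of 9 of the 24 genes (37.5%) and in 37.4% of 32851 promoters of the same length. The 24 were counted by gene and the 32851 by promoter, so these shares are on unlike units. CCAAT stood in promoters of 3 of 6 fibroblast genes and 4 of 10 endothelial genes. TATAAA on either strand stood in 6 of the 24 (25%) and in 13.6% of all promoters. The CArG box, a motif of smooth muscle genes read by serum response factor, stood in 0 of the 24 and in 1.63% of all promoters. Only 3 of the 24 were smooth muscle genes. These are matches of letters within the windows and no more.

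Libraries held 61445842 to 100859149 estimated reads. Grn, which checks the labels, was at 13.8 to 32.9 CPM (read counts relative to library size, with edgeR's TMM scaling) in the 12 Grn+/- libraries and at 34.7 to 60.5 CPM in the 12 Grn+/+ libraries. Human TARDBP had 4328 to 8162 reads in the 12 hTDP+ libraries and 0 to 2 reads in the 12 hTDP- libraries. Markers of excitatory neurons, which define cortex, summed to 4968 to 6259 CPM. Grn+/+ hTDP+ replicate 2 stood apart, with reads on 40188 transcripts against 65994 to 69846 in the other libraries. Some values that rest on it are given with and without it, and others are marked as coming from it.

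The most abundant transcripts were of endothelial and pericyte genes, and the least abundant of smooth muscle and fibroblast genes, with the classes mixed in between: the pericyte gene Anpep had a mean of 1.77 TPM and the fibroblast gene Dcn 6.95 TPM. On the TPM scale, which corrects for length, Ly6c1, a surface protein of brain endothelium, had the highest mean, at 81.1 ± 12.6 TPM (SD, n = 24). It was followed by Vtn, the adhesion protein vitronectin made by pericytes, at 64.9 ± 9.39 TPM, and Egfl7, a protein secreted by endothelium, at 57.6 ± 3.95 TPM. Cldn5, the main strand protein of endothelial tight junctions, at 56.8 ± 7.09 TPM, and Slc2a1, the glucose transporter GLUT1, at 55.8 ± 5.56 TPM, did not differ from Egfl7 beyond their spread. At the low end stood Cnn1, the smooth muscle protein calponin, at 0.449 ± 0.579 TPM and Col3a1, the chain of collagen III, at 0.422 ± 0.318 TPM. Reads of Ly6c1 may be shared with a near-identical gene of its family, and those of Abcb1a with its paralogue, so both levels are uncertain.

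Endothelial genes were steady from mouse to mouse beside the fibroblast genes. Their summed level was 302.3 to 385.3 CPM over the 24 libraries, with a coefficient of variation of 6.81%. The SD of log2 CPM within groups had a median of 0.17 over the 12 genes, from 0.12 for Egfl7 to 0.22 for Ly6c1, and a median of 0.16 over all genes tested. Among genes with a mean of at least 1 CPM, these SDs lay from the 44.5 percentile for Egfl7 to the 77.0 percentile for Ly6c1.

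Cldn5 (ENSMUSG00000041378.2) lay at 33.8, 36.8 and 39.8 CPM (lowest, median and highest) in Grn+/- hTDP+ mice, at 29.8, 34.9 and 43.4 CPM in Grn+/+ hTDP+ mice, at 28.8, 36.4 and 37.8 CPM in Grn+/- hTDP- mice, and at 30.5, 30.7 and 37.4 CPM in Grn+/+ hTDP- mice. All 4 groups overlapped, and 5 of the 6 Grn+/+ hTDP- mice lay between 30.5 and 31.0 CPM. Slc2a1 lay at 75.9, 85.6 and 111.6 CPM in Grn+/- hTDP+ mice, at 78.8, 90.2 and 106.6 CPM in Grn+/+ hTDP+ mice, at 77.2, 82.5 and 94.7 CPM in Grn+/- hTDP- mice, and at 74.6, 81.4 and 96.7 CPM in Grn+/+ hTDP- mice. The highest mouse of each hTDP+ group was above every hTDP- mouse, and the rest overlapped.

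The receptors were equally close between groups. Flt1, the VEGF receptor that acts mainly as a decoy, averaged 59.6 ± 2.80 CPM in Grn+/- hTDP+ mice, 58.8 ± 5.14 CPM in Grn+/+ hTDP+ mice, 58.0 ± 5.83 CPM in Grn+/- hTDP- mice and 56.2 ± 6.00 CPM in Grn+/+ hTDP- mice (SD, n = 6 each). Kdr, the main signalling receptor for VEGF, averaged 12.2 ± 2.05, 11.3 ± 1.87, 12.1 ± 0.857 and 11.53 ± 1.12 CPM in the same 4 groups. Tek, the angiopoietin receptor, ranged from 9.12 to 14.2 CPM over all 24 libraries. The CPM ranges of all 4 groups overlapped for Flt1 and for Kdr.

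Junction and transport genes kept narrow ranges as well. The adherens junction cadherin Cdh5 ranged from 9.94 to 14.1 CPM over the 24 libraries and the adhesion protein gene Esam from 7.91 to 12.8 CPM. The organic anion transporter gene Slco1a4 ranged from 18.6 to 32.2 CPM and the drug efflux pump gene Abcb1a from 23.9 to 34.3 CPM. Among the 12 endothelial genes the highest library exceeded the lowest by 1.38 times for Flt1 up to 1.93 times for Ly6c1. Itm2a, a membrane protein gene, and Egfl7 ranged from 22.2 to 33.3 CPM and from 12.6 to 18.6 CPM.

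Most pericyte genes were as steady as endothelium, and 1 was not. Pdgfrb, the receptor that recruits pericytes to vessels, had the smallest SD within groups of all 32 genes, 0.10 log2 units, and ranged from 15.2 to 20.6 CPM. Rgs5, a regulator of G-protein signalling and a classical pericyte marker, lay at 51.7, 55.8 and 65.3 CPM in Grn+/- hTDP+ mice, at 52.8, 55.4 and 57.0 CPM in Grn+/+ hTDP+ mice, at 48.4, 51.4 and 62.3 CPM in Grn+/- hTDP- mice, and at 44.6, 51.9 and 57.0 CPM in Grn+/+ hTDP- mice. The 12 hTDP- mice reached lower than any hTDP+ mouse, and the upper parts of all groups overlapped. Anpep, the surface aminopeptidase N, had an SD of 0.54 log2 units, at the 96.8 percentile of genes with a mean of at least 1 CPM, and ranged from 1.32 to 4.82 CPM.

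Vtn lay at 43.8, 52.4 and 58.5 CPM in Grn+/- hTDP+ mice, at 38.4, 49.6 and 57.0 CPM in Grn+/+ hTDP+ mice, at 38.9, 47.4 and 53.7 CPM in Grn+/- hTDP- mice, and at 36.3, 45.0 and 48.3 CPM in Grn+/+ hTDP- mice. Its ranges overlapped between all groups. Kcnj8 and Abcc9 encode the pore and the regulatory subunit of the same ATP-sensitive potassium channel. They ranged from 2.37 to 4.27 CPM and from 6.72 to 9.91 CPM, and both extremes of the pair, the lowest Kcnj8 and the highest Abcc9, were in Grn+/+ hTDP+ replicate 2.

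Smooth muscle genes split by role. The contractile genes Acta2 (smooth muscle actin), Tagln (the actin-binding protein transgelin), Myh11 (smooth muscle myosin) and Cnn1 had SDs within groups of 0.54 to 0.73 log2 units. Notch3, the receptor that keeps arterial smooth muscle mature and is also found on pericytes, had an SD of 0.11 and ranged from 10.7 to 14.03 CPM. Acta2 (ENSMUSG00000035783.9) lay at 3.13, 3.79 and 9.19 CPM in Grn+/- hTDP+ mice, at 2.33, 4.69 and 7.45 CPM in Grn+/+ hTDP+ mice, at 2.29, 4.39 and 9.06 CPM in Grn+/- hTDP- mice, and at 1.97, 3.50 and 4.35 CPM in Grn+/+ hTDP- mice. Above the highest Grn+/+ hTDP- mouse were 2 Grn+/- hTDP+, 3 Grn+/+ hTDP+ and 3 Grn+/- hTDP- mice, and the other mice overlapped.

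Myh11 repeated that pattern. It lay at 3.08, 3.63 and 8.07 CPM in Grn+/- hTDP+ mice, at 2.88, 3.94 and 7.15 CPM in Grn+/+ hTDP+ mice, at 2.22, 4.35 and 7.76 CPM in Grn+/- hTDP- mice, and at 2.31, 3.25 and 4.28 CPM in Grn+/+ hTDP- mice. Tagln ranged from 1.61 to 6.44 CPM over the 24 libraries. Cnn1 rested on 12 to 89 reads a library, and its highest value, 0.910 CPM, was in Grn+/+ hTDP+ replicate 2.

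Fibroblast genes varied most. Their summed level was 18.6 CPM in Grn+/+ hTDP- replicate 6 and 92.1 CPM in Grn+/+ hTDP+ replicate 3, a range of 4.95 times, with a coefficient of variation of 43.2%. The SD within groups had a median of 0.83 log2 units over the 9 genes, and each lay at or above the 95.1 percentile of genes with a mean of at least 1 CPM. The sum lay at 29.8, 52.0 and 88.2 CPM in Grn+/- hTDP+ mice, at 28.9, 49.0 and 92.1 CPM in Grn+/+ hTDP+ mice, at 24.8, 47.4 and 83.7 CPM in Grn+/- hTDP- mice, and at 18.6, 39.8 and 58.4 CPM in Grn+/+ hTDP- mice. Low mice occurred in every group, and the high mice were in the first 3. In bulk tissue, fewer cells of a type and less RNA per cell cannot be told apart.

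**Figure D1:**
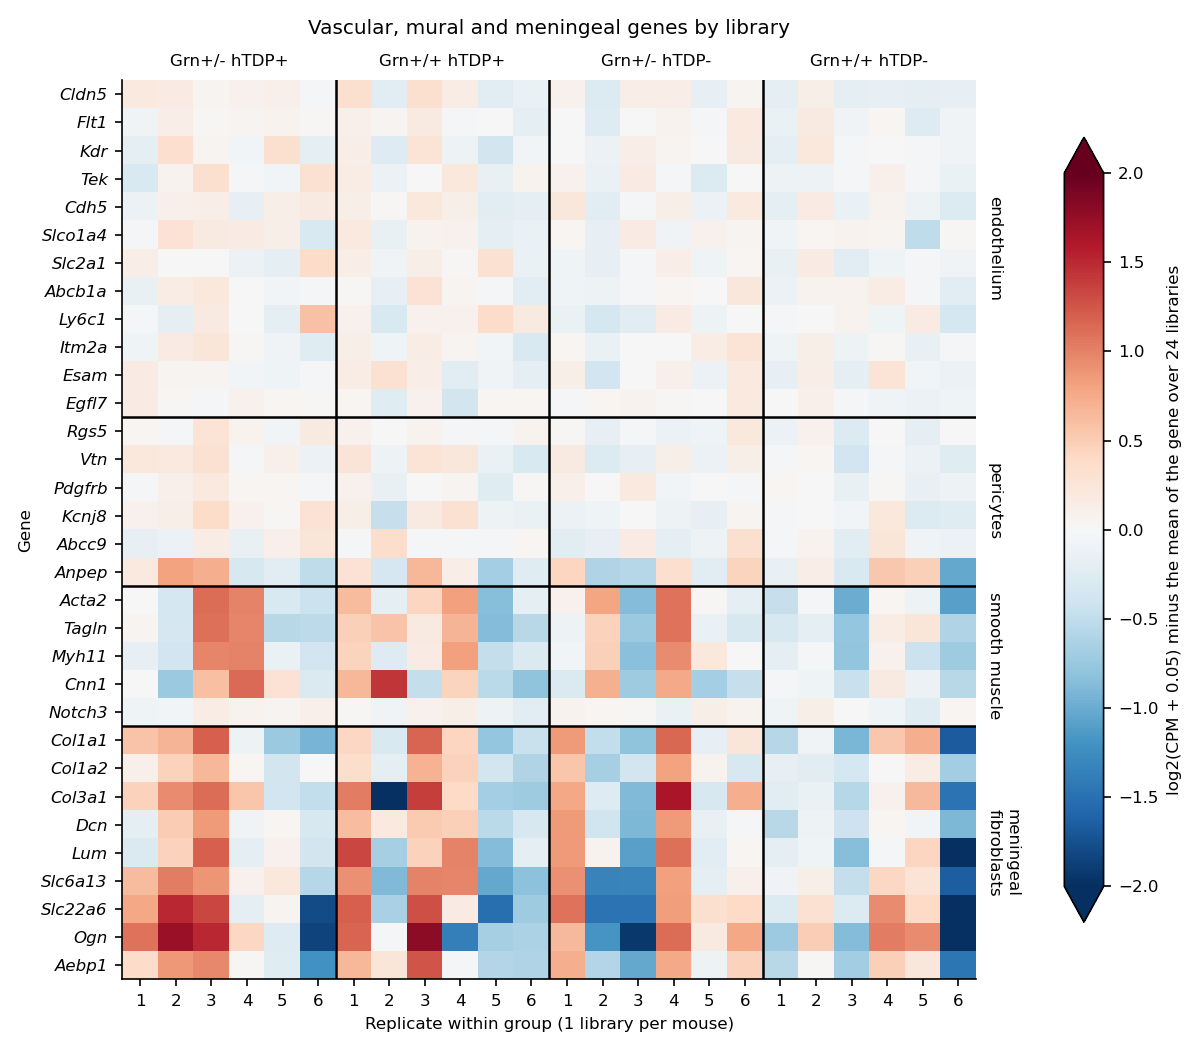
Level of each of the 32 genes (rows, by class) in each library (columns, by group and replicate), as log2(CPM + 0.05) minus the mean of the gene over 24 libraries. Endothelial rows are pale throughout, while the contractile and fibroblast rows turn dark together in single mice, such as the low Grn+/+ hTDP- replicate 6, where the fibroblast genes sum to 18.6 CPM.

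Col1a2 (ENSMUSG00000029661.16), a chain of collagen I, lay at 10.1, 13.8 and 20.7 CPM in Grn+/- hTDP+ mice, at 8.61, 14.1 and 21.3 CPM in Grn+/+ hTDP+ mice, at 8.22, 12.1 and 22.9 CPM in Grn+/- hTDP- mice, and at 8.08, 11.46 and 14.5 CPM in Grn+/+ hTDP- mice. Dcn, the collagen-binding proteoglycan decorin, lay at 4.17, 5.16 and 9.46 CPM in Grn+/- hTDP+ mice, at 3.57, 6.67 and 8.04 CPM in Grn+/+ hTDP+ mice, at 2.77, 4.94 and 9.50 CPM in Grn+/- hTDP- mice, and at 2.79, 4.40 and 5.38 CPM in Grn+/+ hTDP- mice. For both genes the highest Grn+/+ hTDP- mouse was below the highest mouse of each other group, and the low ends overlapped.

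Ogn (ENSMUSG00000021390.6), the proteoglycan osteoglycin, had 13 to 706 reads a library. It lay at 0.636, 4.23 and 8.16 CPM in Grn+/- hTDP+ mice, at 0.908, 1.96 and 8.49 CPM in Grn+/+ hTDP+ mice, at 0.600, 3.30 and 5.35 CPM in Grn+/- hTDP- mice, and at 0.193, 2.43 and 4.99 CPM in Grn+/+ hTDP- mice. Slc6a13, a transporter of GABA and taurine in the leptomeninges, lay at 2.77, 5.66 and 8.46 CPM in Grn+/- hTDP+ mice, at 2.03, 5.13 and 8.29 CPM in Grn+/+ hTDP+ mice, at 1.61, 4.05 and 7.88 CPM in Grn+/- hTDP- mice, and at 1.29, 4.22 and 5.58 CPM in Grn+/+ hTDP- mice. The Grn+/+ hTDP+ mice formed separate clusters for Slc6a13, 3 at 7.92 to 8.29 CPM and 3 at 2.03 to 2.33 CPM. The low cluster includes replicate 2, at 2.23 CPM, the library with few transcripts detected.

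The other fibroblast genes were as broad. Col1a1, the partner chain of Col1a2, ranged from 1.47 to 10.98 CPM over the 24 libraries, the proteoglycan gene Lum from 0.193 to 2.39 CPM, and Aebp1, a secreted protein gene of collagen-rich tissue, from 3.60 to 23.5 CPM. Slc22a6, an organic anion transporter gene, ranged from 0.712 to 10.1 CPM. Col3a1 had 3 reads in Grn+/+ hTDP+ replicate 2 (0.0307 CPM), where the other mice of the group had 0.539 to 2.46 CPM. Grn+/+ hTDP- replicate 6 was the lowest library for 7 of the 9 fibroblast genes, the exceptions being Col3a1 and Dcn.

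**Figure D2:**
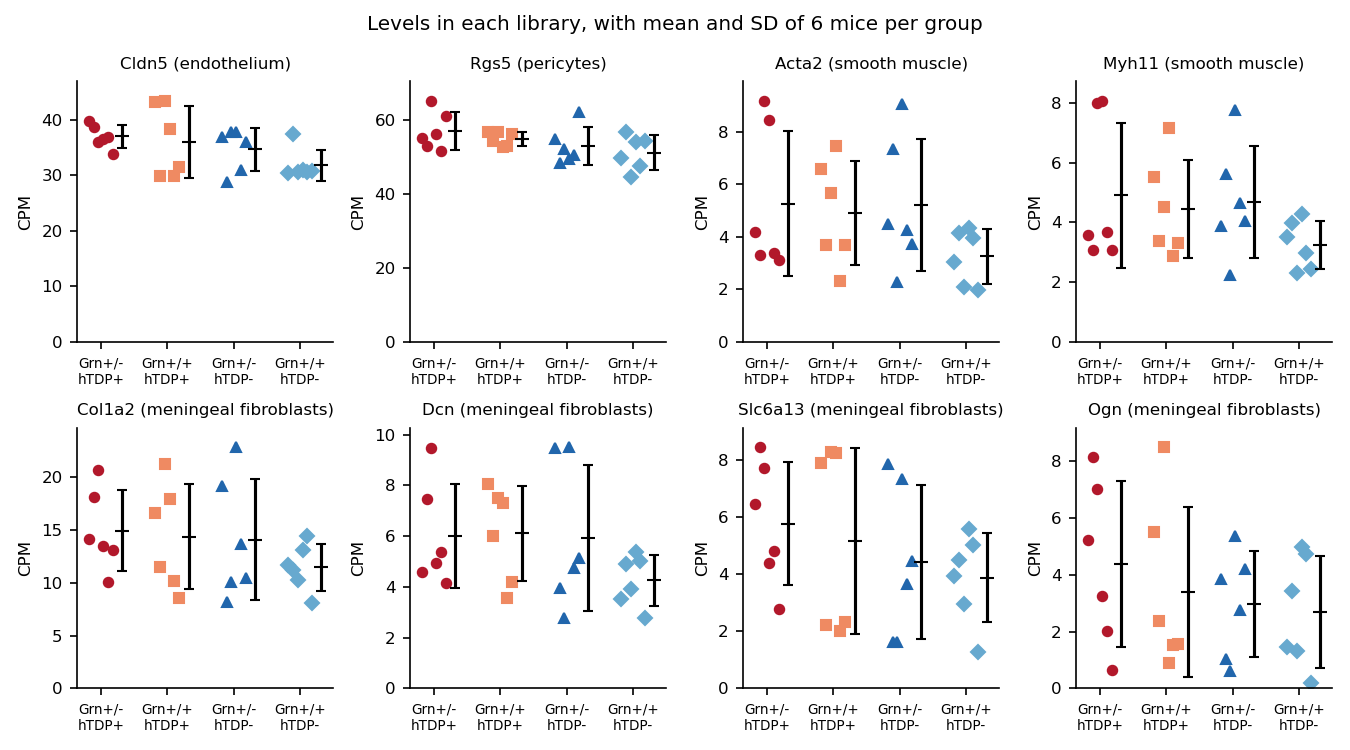
CPM of 8 genes in each library by group, with mean and SD of 6 mice beside the points. Cldn5 and Rgs5 form tight clouds, whereas Acta2, Myh11 and the fibroblast genes spread several-fold within groups. Slc6a13 falls into separate clusters in Grn+/+ hTDP+ mice, the lower of which includes replicate 2, the library with few transcripts detected.

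No gene of the 32 was called in any comparison. A gene was called at a Benjamini-Hochberg adjusted p under 0.05 over 18239 genes in edgeR's quasi-likelihood test, with a term for sex. For the transgene averaged over both Grn genotypes, edgeR called 0 of 32, against 0.11% of all genes, and DESeq2 called 0 of 32, against 0.335%. At an unadjusted p under 0.05 each tool had 3 of 32, against 7.86% of all genes in edgeR and 8.33% in DESeq2. The 3 were Rgs5, at a log2 change of 0.11 (SE 0.0470, edgeR adjusted p = 0.613), Cldn5, at 0.14 (SE 0.0638, edgeR adjusted p = 0.629), and Vtn, at 0.15 (SE 0.0708, edgeR adjusted p = 0.632). Rgs5 averaged 56.1 CPM in the 12 hTDP+ mice and 52.1 CPM in the 12 hTDP- mice.

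The other comparisons had the same count. The transgene called 0 of 32 in Grn+/- mice, against 0.0219% of all genes, and 0 of 32 in Grn+/+ mice, against 0.0329%. The Grn+/- genotype called 0 with the transgene (0.00548% of all genes), 0 without it (0.011%) and 0 on average (0.0219%). Mice with both changes against mice with neither gave 0 (0.0768% of all genes), the interaction 0 (0%) and sex 0 (0.0713%). DESeq2 called 0 of 32 in each of these, against 0.0582%, 0.172%, 0.0274%, 0.0329%, 0.0494%, 1.57%, 0.0165% and 0.121% in the same order. These are shares of the genes to which DESeq2 gave an adjusted p, which were 17170 for the transgene in Grn+/- mice, 16816 in Grn+/+ mice, 5863 for both changes against neither and 18230 in the other comparisons, so the 1.57% (92 genes) is not on the same base as the rest.

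At an unadjusted p under 0.05, both tools had 1 of 32 for the transgene in Grn+/- mice, which was Kcnj8 in edgeR (log2 change 0.24, SE 0.112, edgeR adjusted p = 1), against 2.38% of all genes in edgeR and 2.57% in DESeq2. Both had 1 of 32 for the averaged Grn+/- genotype, which was Pdgfrb in edgeR (0.09, SE 0.0413, edgeR adjusted p = 0.926), against 4.93% in edgeR and 5.45% in DESeq2. For both changes against neither, edgeR had 3 (Cldn5, Rgs5 and Vtn), against 9.4% of all genes, and DESeq2 4, against 10.1%. In the remaining 5 comparisons both tools had 0 of 32. The shares of all genes there were 7.83% in edgeR and 8.57% in DESeq2 for the transgene in Grn+/+ mice, 3.37% and 3.82% for Grn+/- with the transgene, 3.41% and 3.7% for Grn+/- without it, 2.38% and 2.55% for the interaction, and 5.99% and 6.45% for sex. The CPM ranges of the groups overlapped for all 32 genes in each of the 5 comparisons of 2 groups, and the share of all genes whose ranges did not overlap was 0.192% for the transgene in Grn+/- mice, 0.504% in Grn+/+ mice, 0.104% and 0.395% for Grn+/- with and without the transgene, and 0.68% for both changes against neither.

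Fitted changes lay mostly above 0 without passing the threshold. For the averaged transgene, 29 of 32 log2 changes were above 0, against 51.6% of all genes, and the exceptions Kdr, Itm2a and Egfl7 were at −0.01 each. For both changes against neither, 32 of 32 were above 0, against 54.9% of all genes. The transgene had 29 of 32 above 0 in Grn+/- mice (49.9% of all genes) and 30 of 32 in Grn+/+ mice (50.3%). The Grn+/- genotype had 24 of 32 with the transgene (51.4%), 29 of 32 without it (53.9%) and 29 of 32 on average (53.5%). The interaction had 11 of 32 above 0 (51.1%) and sex 21 of 32 (50.7%). Genes of a class share libraries and moved together, so these signs are not independent. Markers of excitatory neurons lay on the other side in the same comparisons, with 0 of 5 above 0 and a median of −0.08 for the averaged transgene, where 1 had an unadjusted p under 0.05 (Neurod6), and 1 of 5 above 0 and a median of −0.17 for both changes against neither, where 2 had. Their part in the signs of the 32 genes was not tested. The medians for the averaged transgene were 0.05 in endothelium, 0.10 in pericytes, 0.26 in smooth muscle and 0.27 in fibroblasts, and 0.003 over all genes tested.

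Single libraries moved these medians by more than 1.5 times. The fibroblast median was 0.12 without Grn+/+ hTDP+ replicate 3, 0.18 without Grn+/+ hTDP- replicate 6 and 0.41 without Grn+/- hTDP- replicate 4. The smooth muscle median was 0.14 without Grn+/- hTDP+ replicate 4, 0.17 without Grn+/- hTDP+ replicate 3 and 0.41 without Grn+/- hTDP- replicate 4. The pericyte median was 0.05 without Grn+/- hTDP+ replicate 3, and the endothelial median was 0.025 to 0.031 without any of Grn+/+ hTDP+ replicates 1 and 3, Grn+/- hTDP- replicate 2 and Grn+/+ hTDP- replicate 5. Each stayed above 0. Among single genes, Cnn1 had a log2 change of 0.44, which was 0.23 without Grn+/+ hTDP+ replicate 2 and 0.93 with length-scaled counts, and Anpep was at 0.09, but at −0.11 with length-scaled counts. The sign differed in at least 1 of 31 other settings also for Kdr, Slco1a4, Abcb1a, Itm2a, Esam, Egfl7, Pdgfrb, Notch3, Col1a1 and Col3a1.

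**Figure D3:**
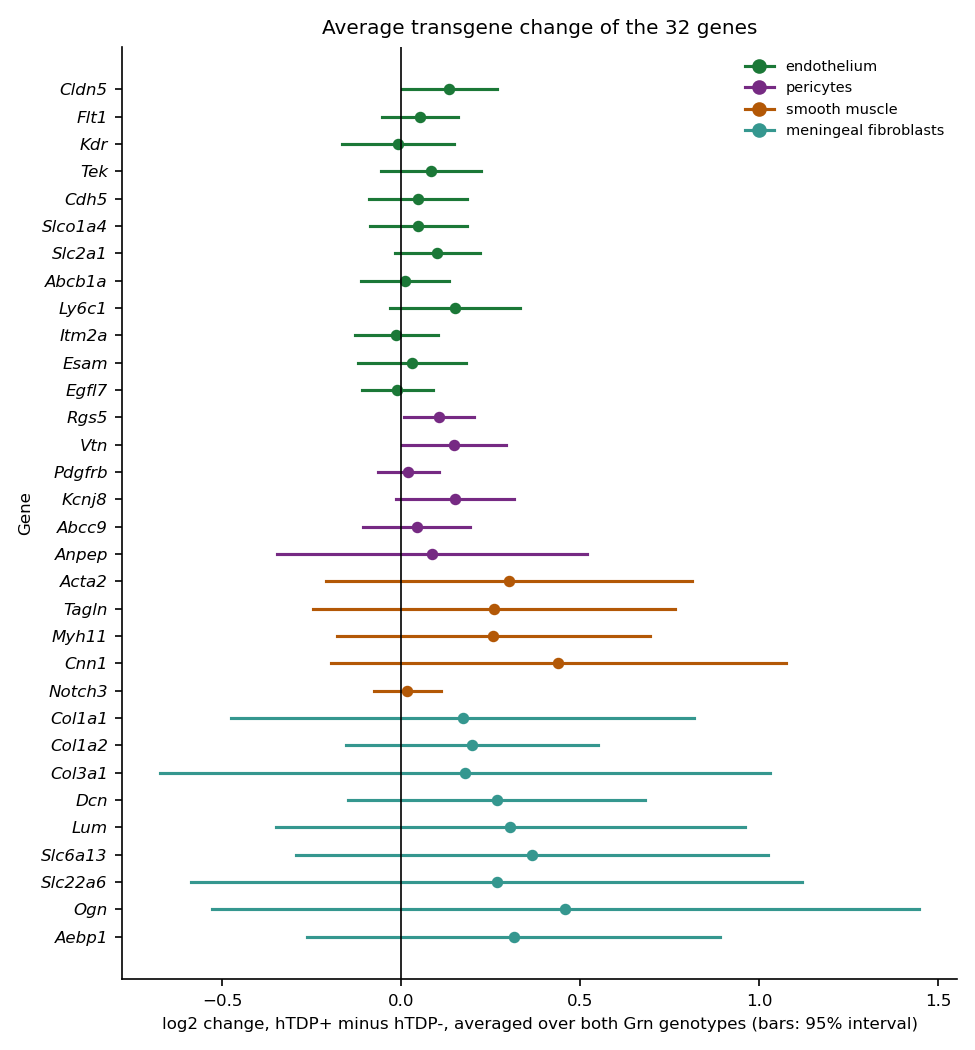
Log2 change with the transgene, hTDP+ minus hTDP-, averaged over both Grn genotypes, for each gene, with its 95% interval from edgeR's fit. Intervals widen from the endothelial genes to the fibroblast genes, where that of Ogn runs from 0.693-fold to 2.72-fold.

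The size of change that could be seen differed by class. The 95% interval of the averaged transgene change ran from 0.965-fold to 1.12-fold for Flt1 and from 1.01-fold to 1.15-fold for Rgs5. It ran from 0.898-fold to 1.46-fold for Col1a2, from 0.865-fold to 1.76-fold for Acta2 and from 0.693-fold to 2.72-fold for Ogn. Changes inside an interval could not be told apart at the spread between these mice.

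In smooth muscle and fibroblasts the transgene change was fitted as larger in Grn+/+ than in Grn+/- mice for 5 of 5 and 7 of 9 genes. The smooth muscle medians were 0.07 in Grn+/- and 0.44 in Grn+/+ mice, and the fibroblast medians 0.08 in Grn+/- and 0.38 in Grn+/+ mice. Acta2 had 0.02 (SE 0.347) in Grn+/- and 0.58 (SE 0.352) in Grn+/+ mice, and Dcn 0.02 (SE 0.281) in Grn+/- and 0.52 (SE 0.283) in Grn+/+ mice. Ogn went the other way, with 0.58 (SE 0.676) in Grn+/- and 0.34 (SE 0.667) in Grn+/+ mice, as did Slc22a6, with 0.33 and 0.20. The test of the difference called none: the interaction was −0.56 (SE 0.494) for Acta2, −0.50 (SE 0.398) for Dcn and 0.24 (SE 0.944) for Ogn, each at an edgeR adjusted p = 1. In endothelium and pericytes the change was larger in Grn+/+ mice for 6 of 12 and 3 of 6 genes.

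The same 2 comparisons were fitted with age as well, and markers of other cells were set beside them. With each age as a block, a fit added after seeing the data, the fibroblast medians were 0.74 in Grn+/- and 0.24 in Grn+/+ mice, the opposite order. The smooth muscle medians were 0.32 in Grn+/- and 0.52 in Grn+/+ mice. Grn+/- hTDP- mice of 8.19, 9.14 and 10.56 months shared their age with no other group, so they carried no comparison there. That group rested on replicates 2 and 3, with fibroblast sums of 27.7 and 24.8 CPM. Its other mice had 44.2 to 83.7 CPM. The part of this loss of mice in the order was not tested. Perivascular macrophage genes had medians of −0.10 in Grn+/- and 0.51 in Grn+/+ mice (3 and 7 of 7 above 0, and 0 and 2 at an unadjusted p under 0.05). Ependymal genes had −0.49 in Grn+/- and 1.19 in Grn+/+ mice (0 and 3 of 3 above 0, and 0 and 2 at an unadjusted p under 0.05). Erythroid genes had 0.07 in Grn+/- and 0.55 in Grn+/+ mice. The shares of all genes were 49.9% and 50.3% above 0, and 2.38% and 7.83% at that p in edgeR. The ependymal sum was 12.4 CPM in Grn+/- hTDP- replicate 2 and 19.1 CPM in Grn+/+ hTDP+ replicate 2. It was 1.48 to 4.88 CPM in every other library. The part of age and of these other cells in the difference was not tested, and edgeR called 0 genes of these cells.

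The Grn+/- genotype gave the same picture from the other side, since these comparisons share the 4 groups. Its smooth muscle medians were 0.10 with the transgene and 0.37 without it, and its fibroblast medians 0.07 with the transgene and 0.38 without it. Acta2 had a log2 change of 0.11 (SE 0.347, edgeR adjusted p = 0.989) with the transgene and 0.67 (SE 0.352, edgeR adjusted p = 1) without it. Endothelial medians were 0.03 with the transgene and 0.06 without it. With each age as a block, the fibroblast medians were 0.01 with the transgene and −0.37 without it. The smooth muscle medians were −0.005 with the transgene and 0.06 without it. Grn+/- hTDP- mice rested in that fit on replicates 2 and 3 alone.

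Male and female mice overlapped in range. The fibroblast sum was 18.6 to 88.2 CPM in the 12 males and 27.7 to 92.1 CPM in the 12 females, and the endothelial sum 316.2 to 377.2 CPM in males and 302.3 to 385.3 CPM in females. The largest fitted differences, male minus female, were 0.25 (SE 0.317) for Lum and −0.23 (SE 0.307) for Cnn1, at an edgeR adjusted p = 0.930 and 0.933.

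Age was unequal between groups: 7 hTDP+ and 2 hTDP- mice were 10.07 months old, and 5 hTDP+ and 4 hTDP- mice were 9.44 months old. At 10.07 months the fibroblast sum was 40.5 to 92.1 CPM in the hTDP+ mice and 31.0 to 44.6 CPM in the hTDP- mice. At 9.44 months it was 28.9 to 57.6 CPM in the hTDP+ mice and 18.6 to 58.4 CPM in the hTDP- mice. The hTDP+ mice were thus higher than the hTDP- mice in part of the older stratum and overlapped with them in the younger. With age as a linear term, the medians for the averaged transgene were 0.23 in fibroblasts and 0.24 in smooth muscle, and 0 of the 32 genes were called. With each age as a block, Grn+/- hTDP- mice rested on replicates 2 and 3 alone, since the others shared their age with no other group. The medians were then 0.005 in endothelium, 0.13 in pericytes, 0.46 in smooth muscle and 0.51 in fibroblasts. In that fit 24 of 32 genes were above 0, against 50.3% of all genes. edgeR then called 0 of the 32, with 2 (Vtn and Dcn) at an unadjusted p under 0.05, against 2.06% of all genes.

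Genes of a class moved together between mice to very different degrees. Over 24 libraries, with group means removed, Pearson's r of log2 CPM had a median of 0.83 over 36 pairs of fibroblast genes (0.55 to 0.94), 0.66 over 10 smooth muscle pairs, 0.36 over 15 pericyte pairs and 0.28 over 66 endothelial pairs. Without Grn+/+ hTDP+ replicate 2 the medians were 0.86, 0.81, 0.40 and 0.31. The smooth muscle pairs were of unlike strength. Over all 24 libraries, pairs among the contractile genes had r of 0.66 to 0.953, and pairs with Notch3 had 0.048 to 0.255. The points share library preparation and depth, and the values describe these 24 libraries. All 9 fibroblast genes had their highest median r with their own class, as did 4 of 5 smooth muscle, 3 of 6 pericyte and 5 of 12 endothelial genes.

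Some genes moved with another class than the one they are listed in. Anpep had a median r of 0.88 with the fibroblast genes and 0.37 with the other pericyte genes. Vtn had 0.76 with the fibroblast genes and 0.44 with the other pericyte genes, while Rgs5 had 0.11 with the fibroblast genes. Notch3 had 0.105 with the contractile genes, 0.29 with the pericyte genes and 0.28 with the endothelial genes. Ly6c1, Abcc9 and Egfl7 followed no class closely, with highest class medians of 0.14, 0.13 and 0.18. Ly6c1 had a median r of 0.01 with the other endothelial genes, although r was 0.65 with Slc2a1.

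**Figure D4:**
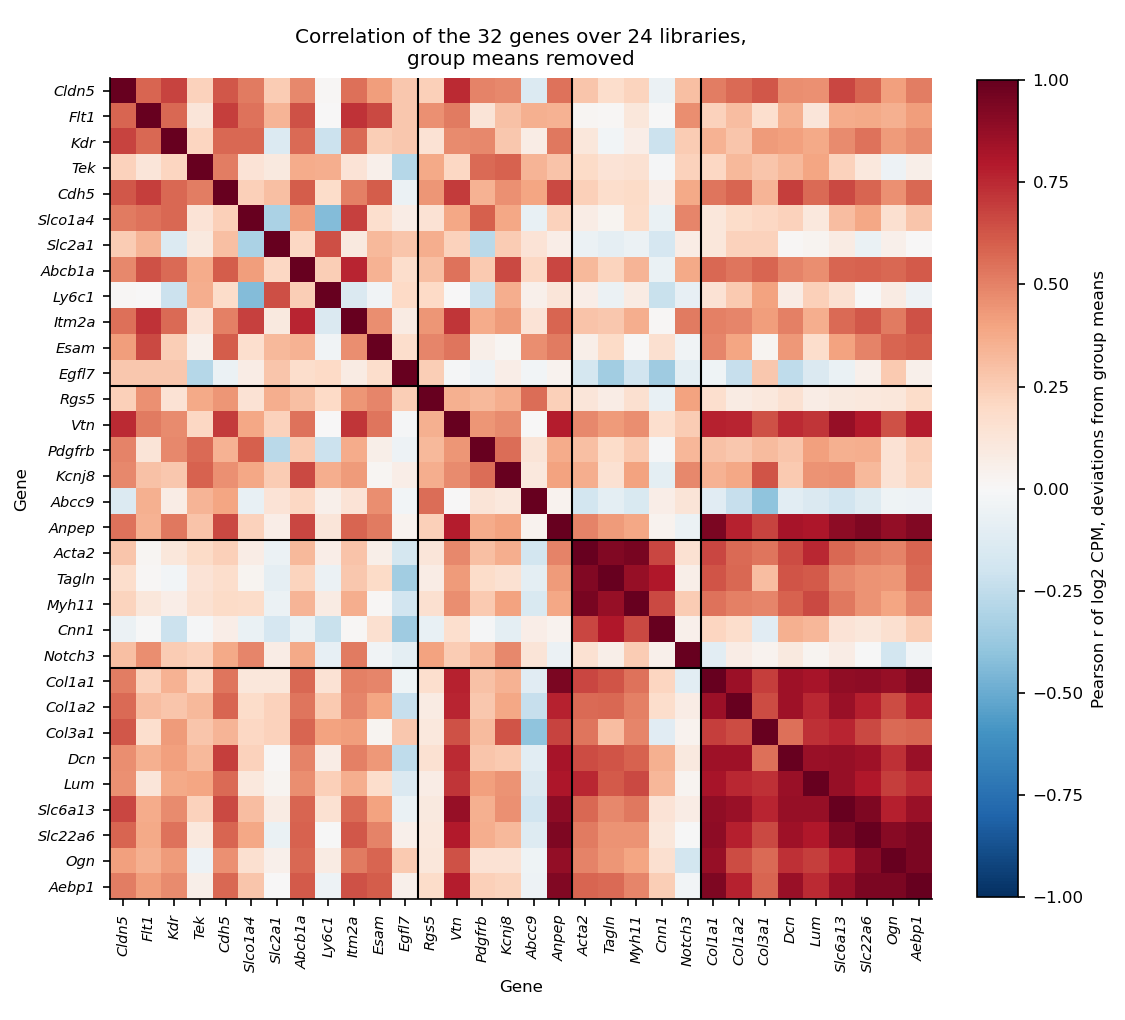
Pearson's r of log2 CPM between all pairs of the 32 genes over 24 libraries, as deviations from group means, in class order. The 9 fibroblast genes form the largest dark block, which the rows of Anpep and Vtn join. Acta2, Tagln, Myh11 and Cnn1 form a smaller block of similar strength, without Notch3.

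For 10 pairs of genes the correlation was tested across the 24 libraries by permutation with 100000 resamples, and p-values were adjusted over the 10. Acta2 and Myh11 had r = 0.96 and rho = 0.93 (permutation p = 1e-05 for both, the smallest the resamples can give, with adjusted p = 5e-05 for r and 0.0001 for rho). Col1a2 and Dcn had r = 0.86 and rho = 0.78 (permutation p = 1e-05 and 2e-05, adjusted p = 5e-05 and 0.0001). Cldn5 and Flt1 had r = 0.62 and rho = 0.52 (permutation p = 0.00135 and 0.0112, adjusted p = 0.00308 and 0.0224). Without the 2 libraries farthest from the median of the first gene, r was 0.94, 0.83 and 0.51 for these 3 pairs.

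Across classes, Cldn5 and Col1a2 had r = 0.62 and rho = 0.56 (permutation p = 0.00141 and 0.00474, adjusted p = 0.00308 and 0.0119), and Acta2 and Col1a2 had r = 0.61 and rho = 0.63 (permutation p = 0.00154 and 0.00129, adjusted p = 0.00308 and 0.0043). Without 2 libraries these were 0.51 and 0.47. Rgs5 and Vtn had r = 0.49 and rho = 0.46 (permutation p = 0.0145 and 0.0252, adjusted p = 0.0242 and 0.042). For that pair r was 0.24 without the 2 libraries farthest from the median of Rgs5, whose omission also narrows the range of Rgs5. It was 0.35 with group means removed. Neither passed the threshold.

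The other 4 pairs did not pass. Cldn5 had r = 0.41 and rho = 0.39 with Rgs5 (permutation p = 0.0493 and 0.0622, adjusted p = 0.0704 and 0.0889) and r = 0.39 and rho = 0.36 with Acta2 (permutation p = 0.057 and 0.0825, adjusted p = 0.0713 and 0.103). Rgs5 had r = 0.25 and rho = 0.22 with Acta2 (permutation p = 0.247 and 0.298, adjusted p = 0.274 and 0.331) and r = 0.21 and rho = 0.18 with Col1a2 (permutation p = 0.325 and 0.388, adjusted p = 0.325 and 0.388). Without the 2 farthest libraries r was 0.33, 0.51, −0.10 and −0.01 for these 4 pairs.

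Fibroblast and smooth muscle levels did not always peak in the same mouse. Grn+/- hTDP+ replicate 3 was high in both, with 88.2 CPM in fibroblast and 38.1 CPM in smooth muscle genes, as was Grn+/- hTDP- replicate 4, with 83.7 and 35.4 CPM. Grn+/- hTDP+ replicate 2 had 81.0 CPM in fibroblast and 21.1 CPM in smooth muscle genes, and Grn+/- hTDP- replicate 2 had 27.7 and 30.7 CPM. The ratio of the sums ran from 0.902 to 3.83 between these last mice, the extremes of the 24 libraries. The ratio of pericyte to endothelial sums stayed between 0.336 and 0.442 in all 24.

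**Figure D5:**
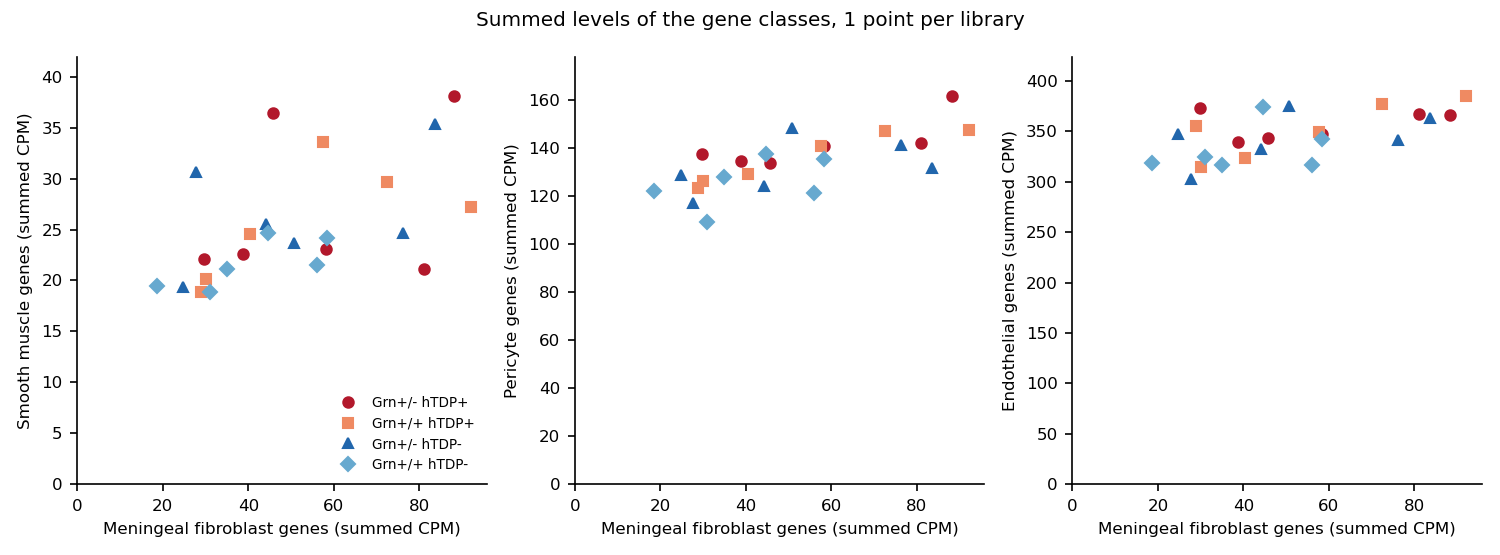
Summed CPM of the smooth muscle, pericyte and endothelial genes against that of the fibroblast genes, 1 point per library, marked by group. Pericyte and endothelial sums stay in a narrow band while the fibroblast sum runs from 18.6 to 92.1 CPM, and smooth muscle sums above 30 CPM occur across that range.

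Dcn and Lum are neighbours on chromosome 10 of GRCm38 (97479609 to 97518143 and 97565128 to 97572703, plus strand), 46984 bases apart, and had r = 0.86 with group means removed, or 0.89 without Grn+/+ hTDP+ replicate 2. That is near the median over all 36 fibroblast pairs, 0.83, or 0.86 without that library. Kcnj8 and Abcc9 lie 16247 bases apart on chromosome 6 (142564837 to 142571614 and 142587862 to 142702315, minus strand). They had r = 0.11, or 0.44 without that library, so the low value of the channel pair rested on it.

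That library also placed its reads on other transcripts. Of the 27 genes with more than 1 annotated transcript, 12 had a lower share on their main transcript there than in any other library. Kcnj8-202, Myh11-201 and Cnn1-201 held 0% there, against at least 65.9%, 23.6% and 16.2% in the other libraries. Abcc9-203 held 52.9%, against 87.3% to 98.7%. For Ly6c1-201 the share was 39.1%, against 62.7% to 82.4%.

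Further markers of the same cells were tested beside the 32 genes, and edgeR and DESeq2 called 0 of them in all 9 comparisons. A list of 23 other fibroblast genes summed to 165.6 CPM in Grn+/+ hTDP- replicate 6, again the lowest library, and to 908.2 CPM in Grn+/- hTDP+ replicate 2. Its median log2 change with the averaged transgene was 0.225, with 22 of 23 above 0 and 0 at an unadjusted p under 0.05. For all further lists, the shares of all genes to set beside such counts are 51.6% above 0 and 7.86% at an unadjusted p under 0.05. Osr1, a transcription factor gene of connective tissue, had the smallest p, at 2.02 ± 0.801 CPM in hTDP+ and 1.61 ± 0.501 CPM in hTDP- mice (SD, n = 12 each, edgeR adjusted p = 0.707). It was followed by Fbln1, an extracellular matrix gene, at 0.12 (SE 0.0940), and Aldh1a2, a gene of retinoic acid synthesis, at 0.44 (SE 0.347).

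In 11 further smooth muscle genes the median with the averaged transgene was 0.13, with 11 of 11 above 0 (51.6% of all genes) and 3 at an unadjusted p under 0.05 (7.86% of all genes). These were Cald1, the actin regulator caldesmon, at 0.13 (SE 0.0569, edgeR adjusted p = 0.613), Des, the intermediate filament desmin, at 0.39 (SE 0.172, edgeR adjusted p = 0.613), and Casq2, a calcium-storing protein gene, at 0.23 (SE 0.105, edgeR adjusted p = 0.628). In 11 further pericyte genes the median was 0.10, with 8 of 11 above 0 and 0 at an unadjusted p under 0.05. Higd1b had the smallest p there, at 0.22 (SE 0.111, edgeR adjusted p = 0.646), ahead of Slc6a20a, a proline transporter gene, at 0.41 (SE 0.248), and Zic1, a transcription factor gene, at 0.38 (SE 0.231).

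In 24 further endothelial genes the median was 0.03, with 15 of 24 above 0 (51.6% of all genes) and 3 at an unadjusted p under 0.05 (7.86% of all genes), both near the shares of all genes. Slc7a5, the barrier's carrier of large neutral amino acids, was at 99.4 ± 7.08 CPM in hTDP+ and 93.6 ± 4.72 CPM in hTDP- mice (edgeR adjusted p = 0.572). Robo4, an endothelial guidance receptor gene, was at 2.54 ± 0.576 CPM in hTDP+ and 2.05 ± 0.608 CPM in hTDP- mice (edgeR adjusted p = 0.629). Mfsd2a, a lipid transporter gene that holds back vesicle traffic through endothelium, was at 15.4 ± 3.57 CPM in hTDP+ and 13.4 ± 1.36 CPM in hTDP- mice (edgeR adjusted p = 0.634, SD, n = 12 each). None passed the threshold.

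Genes that signal to vessels, and those of the vessel wall's matrix, gave no call either. Over 12 ligand genes the median with the averaged transgene was 0.05, with 9 of 12 above 0, and the smallest p was that of Edn1, the constrictor peptide endothelin, at 0.21 (SE 0.105, edgeR adjusted p = 0.648), ahead of Vegfb at 0.06 and Apln, the peptide apelin, at −0.15. Over 13 genes of Wnt and barrier signalling it was −0.03, with 4 of 13 above 0. There Adgra2, the receptor that lets endothelium respond to Wnt7 ligands, had 0.14 (SE 0.0705, edgeR adjusted p = 0.649), the ligand gene Wnt7b −0.10 and the Wnt inhibitor gene Apcdd1 0.08. Over 12 basement membrane genes it was 0.01, with 7 of 12 above 0, and perlecan (Hspg2) had −0.12, the laminin chain gene Lama5 0.10 and the collagen IV chain gene Col4a1 0.12. These 3 lists had 0 genes at an unadjusted p under 0.05.

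Markers of other cells that the dissection could hold were measured beside the fibroblast genes. Perivascular macrophage genes, 7 of 7 past the filter, summed to 2.98 to 6.996 CPM in Grn+/- hTDP+, 3.08 to 7.27 CPM in Grn+/+ hTDP+, 2.36 to 7.72 CPM in Grn+/- hTDP- and 1.65 to 5.09 CPM in Grn+/+ hTDP- mice. Their lowest library was also Grn+/+ hTDP- replicate 6, and their highest was Grn+/- hTDP- replicate 4. Of 10 choroid plexus genes 5 passed, and all 10 summed to 4.35 to 6.73 CPM in Grn+/- hTDP+, 4.16 to 15.7 CPM in Grn+/+ hTDP+, 3.22 to 8.04 CPM in Grn+/- hTDP- and 3.51 to 12.8 CPM in Grn+/+ hTDP- mice. The top value was in Grn+/+ hTDP+ replicate 2, and the other mice of its group reached at most 7.40 CPM. Among the choroid genes Folr1, Kcne2 and Slc4a5 were at 0 in 2 libraries each, Otx2 in 3 and Cldn2 in 1. The part of these cells, and of the amount of brain surface in a piece, in the fibroblast differences was not tested.

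Blood and ventricle lining were uneven too. Erythroid genes, 5 of 5 past the filter, summed to 13.2 to 77.9 CPM in Grn+/- hTDP+, 17.9 to 54.2 CPM in Grn+/+ hTDP+, 10.96 to 150.3 CPM in Grn+/- hTDP- and 11.1 to 30.8 CPM in Grn+/+ hTDP- mice. With the averaged Grn+/- genotype their median log2 change was 0.97, with 5 of 5 above 0 and 5 at an unadjusted p under 0.05 (4.93% of all genes), and edgeR and DESeq2 called 0. Their part in the endothelial values was not tested. Ependymal genes, 3 of 4 past the filter, summed to 2.12 to 4.01 CPM in Grn+/- hTDP+, 2.67 to 19.1 CPM in Grn+/+ hTDP+, 1.62 to 12.4 CPM in Grn+/- hTDP- and 1.48 to 2.96 CPM in Grn+/+ hTDP- mice. The top value was in Grn+/+ hTDP+ replicate 2, and the other mice of its group reached at most 4.88 CPM. Tmem212 was at 0 in 17 libraries and Ccdc153 in 6.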

How the data were processed

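Poly-A RNA of frontal cortex was sequenced in 24 libraries, 1 per mouse. Per the file headers, the deposited files give Salmon expected counts (estimated reads per transcript) and TPM for 149444 transcripts, and the submitters' processing notes also name STAR, SAMtools and DESeq2, without versions or roles. The authors' build and annotation: not given in the sources used here. The labels' protocols describe both strand-keeping and other library steps, so genes that overlap on opposite strands may share reads. Transcripts were looked up in GENCODE M21 (GRCm38), which placed 138032 of them (92.4%) in 52352 genes; the rest held 1.17% to 1.67% of reads and, human TARDBP apart, were not used.

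Each gene's deposited expected counts were added over its transcripts, then rounded, and deposited TPM were added likewise. Genes past edgeR's default filter were tested over all 24 libraries with edgeR 4.0.16 (R 4.3.3), two-sided, with a term per group and for sex, TMM scaling and Benjamini-Hochberg adjustment over 18239 genes. Log2 CPM used a prior count of 1. The code was tested on simulated data. Correlations and figures used Python 3.11.15 with scipy 1.17.1 and matplotlib 3.10.9. Alternatives were DESeq2 1.42.0, its size factors, no filter, a linear age term, no sex term, length-scaled counts and leaving out each library. The correlations without Grn+/+ hTDP+ replicate 2 and the fit with each age as a block were added after seeing the data. The members, lists and pairs were chosen with earlier results of these data known, so the pairs' p-values are not independent of them. All 32 members were named, and from each further list the 3 genes of smallest p for the averaged transgene. Intervals of fits are for the mean change, with an uncertainty taken from the spread between mice, and are not ranges of single mice. Promoters are those of RefSeq on GRCm38.p6.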

Additional observations from a re-analysis of the deposited data

Results flagged for a closer look

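In groups of 6 mice, a single library stood apart from its group by Dixon's test for 5 of 128 combinations of gene and group, where chance alone flags about 1 in 20. Cldn5 was at 37.4 CPM in Grn+/+ hTDP- replicate 2, above 30.5 to 31.0 CPM in the other 5 mice. Slco1a4 was at 18.6 CPM in Grn+/+ hTDP- replicate 5, below 25.1 to 27.6 CPM in the others. Notch3 was at 11.6 CPM in Grn+/- hTDP- replicate 4, below 12.9 to 13.7 CPM. In Grn+/+ hTDP+ replicate 2, the library with few transcripts detected, Abcc9 was at 9.91 CPM, above 7.54 to 7.98 CPM, and Col3a1 at 0.0307 CPM, below 0.539 to 2.46 CPM. The part of that library's preparation in its values was not tested.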

How the results depend on the processing

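No gene of the 32 was called under any of the 31 other settings tried. Counts over all genes did change. With DESeq2's test the genes called were 29 for the transgene in Grn+/+, 10 in Grn+/-, 6 for Grn+/- without and 5 with the transgene, 92 for both changes against neither, 61 for the averaged transgene, 9 for averaged Grn+/-, 3 for the interaction and 22 for sex, against 6, 4, 2, 1, 14, 20, 4, 0 and 13 with edgeR. Without the filter they were 2 for the transgene in Grn+/-, 0 for Grn+/- with the transgene and 9 for both changes. With the age term they were 2 for the transgene in Grn+/- and 0 for Grn+/- without the transgene, and with length-scaled counts 0 for Grn+/- with the transgene and 5 for both changes. In the fit with each age as a block, Grn+/- hTDP- mice rested on replicates 2 and 3 alone. It called 0 for the transgene in Grn+/-, and 0 for Grn+/- without and 0 with the transgene. For both changes it called 3, for the averaged transgene 2 and for averaged Grn+/- 1. The cause was not tested. Leaving out each library gave 4 to 7, 2 to 4, 0 to 3, 1 to 2, 4 to 16, 14 to 22, 4 to 6, 0 to 0 and 12 to 16 in the same order, and 0 to 0 of the 32 genes. Class medians for the averaged transgene were 0.025 to 0.063 in endothelium, 0.053 to 0.133 in pericytes, 0.139 to 0.414 in smooth muscle and 0.119 to 0.412 in fibroblasts. Without the 2 farthest libraries, r turned to −0.098 for Rgs5 and Acta2 and to −0.013 for Rgs5 and Col1a2, was 0.245 for Rgs5 and Vtn (0.354 with group means removed) and passed the threshold at 0.505 for Cldn5 and Acta2. No paired analysis was possible because the labels give no replicate numbers shared between groups and do not tie mice to litters, so only age could be used as a block. Reads were few for Cnn1 (12 to 89 a library), Lum (13 to 219) and Col3a1 (3 to 205), which limits their precision.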

Other observations

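Values by age, chosen after seeing the data, are given without explanation. The 23 further fibroblast genes summed to 372.3 to 908.2 CPM in the 7 hTDP+ mice of 10.07 months and to 230.9 to 403.1 CPM in the 5 hTDP+ mice of 9.44 months. In hTDP- mice the same sum was 286.3 to 496.8 CPM in the 2 mice of 10.07 months and 165.6 to 637.2 CPM in the 4 mice of 9.44 months. Perivascular macrophage genes summed to 3.62 to 7.27 CPM in hTDP+ mice of 10.07 months and 2.98 to 6.08 CPM in those of 9.44 months. Endothelial sums were 323.7 to 385.3 CPM in hTDP+ mice of 10.07 months and 314.9 to 373.4 CPM in those of 9.44 months.

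Vessel ligand genes and basement membrane genes were above 0 throughout with the averaged Grn+/- genotype, 12 of 12 in each list, against 53.5% of all genes, with medians of 0.14 and 0.08 log2 units. In each list 1 of 12 genes had an unadjusted p under 0.05 in edgeR, against 4.93% of all genes, and edgeR and DESeq2 called 0.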
